A study of Mus musculus with 6 samples.

Results

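The Sox and Klf genes described here are 10 transcription factors that are active in epithelia: Sox2, Sox4, Sox9, Klf2, Klf3, Klf4, Klf5, Klf6, Klf9 and Klf10. They were chosen by name, all 10 were found in the table of 21966 genes, and all passed the quality status of CuffDiff in both conditions. RNA-seq compared primary tumor cells from CDX2P-NLS-Cre;APCΔ/+;ROSA26-PID mice (PID+, samples named for mice 4, 7 and 26) with those from CDX2P-NLS-Cre;APCΔ/+ littermates (PID-, samples named for mice 1, 2 and 3), which the labels call normal and untreated. Mice of both cohorts carried the Cre transgene, active mainly in epithelium of the large intestine and distal small intestine, and 1 Apc allele truncated by it, and were followed for 8 months, while the age at which the lines were derived is not given in the sources used here. PID+ cells also expressed the Pak inhibitor domain, fused to GST, from the Rosa26 locus. The study's text numbers its PID+ lines as the labels do, but gives its PID- lines other numbers than the labels' mice, so which lines the PID- samples are is not settled. The lines were cultured from adenomas, and the reads of the 3 samples of a condition were merged by the authors before quantification. Each gene therefore has 1 pooled FPKM per condition, no value per sample and no replicate check, and no p-value was calculated. The conditions could not be checked on the transgene, which is not among the listed genes.

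Sox proteins bind the minor groove of DNA through an HMG box and bend it, while Klf proteins bind GC-rich and CACCC sequences through zinc fingers at their C-terminus. In the intestine, Klf5 is known from the dividing cells of the crypt and Klf4 from differentiated cells nearer the lumen, goblet cells included. Sox9 is known from crypt base cells and is needed for Paneth cells. Several Klf genes are also early targets of signals, Klf10 of TGF-β and Klf9 of glucocorticoids.

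FPKM, the fragments of a gene scaled by its transcript length and by library size, allows levels to be compared between genes. Differences between conditions are log2 ratios of FPKM + 1 in PID+ over PID- cells, and 2-fold and 3-fold refer to this scale. Where a pair of FPKM values is given for a gene, the first is that of PID+ cells. The intervals are the bounds that CuffDiff gave for each FPKM. They are wide, reaching 54.1% to 99.5% of the FPKM on each side in the 8 members averaging an FPKM of at least 5, and cover its own error model only. Where a gene had a single annotated transcript, its smallest values were multiples of a common step, taken as the worth of 1 read. Within 0.1 of a whole read lay 91.6% of these values for PID+ and 91.5% for PID- cells. Read as a division by depth, the steps correspond to 68.8 M reads for PID+ and 94.2 M for PID- cells.

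Klf4 had the largest difference of the 8 expressed genes, with a level in PID+ cells 0.383 times that in PID- cells. Klf9 and Klf10 were lower by nearly the same ratio as each other, Klf3 and Klf5 were lower by less, and Sox4 and Sox9 had almost equal levels in both conditions. Klf6, the most abundant, was the single member with a higher FPKM in PID+ cells. Sox2 was practically absent and Klf2 was very low. In all, 9 of the 10 had a lower FPKM in PID+ cells, Sox2 with its single read included, against 39.7% of all genes. Among the 8 averaging an FPKM of at least 5 it was 7, against 50.1% of the 9341 genes at that level. At least 2-fold lower was 1 of the 10, against 3.77% of all genes, and at least 2-fold higher none, against 3.31%. No member differed by at least 3-fold, a size that 1.72% of all genes reached downwards and 1.04% upwards, and none had intervals apart, against 0.729% of all genes. The median log2 change of the 10 was -0.42, where all genes had 0. In pooled bulk RNA, fewer cells of a type and less RNA per cell cannot be told apart.

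**Figure D1:**
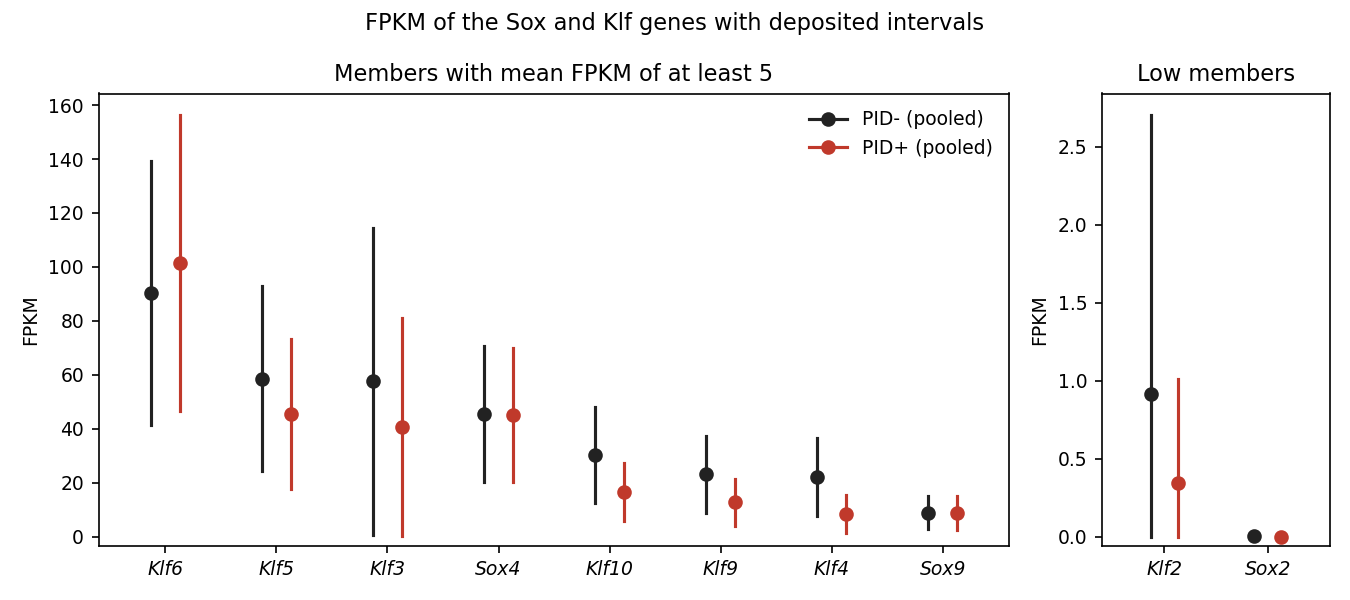
FPKM (vertical axis, linear, with a different range in each panel) of the 10 genes in PID- cells (black) and PID+ cells (red); points are the pooled value of a condition and bars the deposited interval. The bars of PID+ and PID- cells overlap for every gene, and Klf4, Klf9 and Klf10 have the widest relative gaps between the points among the 8 genes of the left panel.

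The stretches of DNA before the start sites are shown for 4 members that cover the range of behavior: Klf4 with the largest difference, Klf9 as one of the pair that shared a ratio, Klf6 as the most abundant, and Sox4 as a gene with equal levels. They are RefSeq sequences of GRCm38.p6, written 5′ to 3′ on the strand of the gene, and end before the annotated start. Capitals mark the GC box GGGCGG and the CACCC box, searched on both strands. They are the letters that Klf and Sp proteins are known to bind. The regions are chr4:55532476-55532725 on the minus strand, chr19:23140976-23141225 on the plus strand, chr13:5861239-5861481 on the plus strand and chr13:28953714-28953949 on the minus strand.
Klf4: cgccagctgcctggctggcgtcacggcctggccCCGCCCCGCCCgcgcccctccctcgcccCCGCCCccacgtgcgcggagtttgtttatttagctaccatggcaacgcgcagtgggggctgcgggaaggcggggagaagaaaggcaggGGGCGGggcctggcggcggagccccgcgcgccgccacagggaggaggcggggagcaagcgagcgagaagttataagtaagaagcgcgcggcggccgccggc
Klf9: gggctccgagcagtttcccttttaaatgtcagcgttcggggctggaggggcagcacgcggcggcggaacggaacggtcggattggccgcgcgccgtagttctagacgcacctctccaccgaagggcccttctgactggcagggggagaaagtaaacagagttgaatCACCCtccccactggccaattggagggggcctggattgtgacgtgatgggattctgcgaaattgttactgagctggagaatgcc
Klf6: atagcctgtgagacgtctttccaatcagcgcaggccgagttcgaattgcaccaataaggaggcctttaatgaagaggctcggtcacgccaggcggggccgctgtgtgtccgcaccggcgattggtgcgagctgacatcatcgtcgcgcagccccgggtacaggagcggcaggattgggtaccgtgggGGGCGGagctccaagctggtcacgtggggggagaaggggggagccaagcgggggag
Sox4: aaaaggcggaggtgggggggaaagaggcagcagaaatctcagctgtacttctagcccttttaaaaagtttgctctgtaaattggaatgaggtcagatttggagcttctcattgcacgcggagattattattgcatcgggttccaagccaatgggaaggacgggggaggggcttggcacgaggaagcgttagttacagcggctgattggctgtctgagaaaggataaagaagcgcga

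The Klf4 stretch held 4 GC boxes, the first 2 of them sharing a base, and no CACCC box. The Klf9 stretch held no GC box and 1 CACCC box, whose first bases also belong to the only TGANTCA, the letters of an AP-1 site, found in the members. Klf6 had 1 GC box and Sox4 neither motif, while CCAAT occurred 4 times in the 250 bases before the RefSeq start of both, and 3 times in Klf9. In windows of that length before all 32851 RefSeq starts, GGGCGG was present in 32.7%, CACCC in 52%, CCAAT in 33.8% and TGANTCA in 6.75%. Promoters of Sox2, Sox4, Klf2, Klf3, Klf4, Klf6 and Klf9 were matched, and those of Sox9, Klf5 and Klf10 were not. In the 250 bases before its RefSeq start, Klf3 had 6 GC boxes and 5 CACCC boxes, and Klf2 had 2 GC boxes and 1 CACCC box. Both windows run past the annotated gene start, which follows after 117 bases in Klf3 and 221 in Klf2. Some of the Klf3 boxes and the CACCC box of Klf2 therefore lie inside the annotated genes. Sox2 had 2 GC boxes and was the only matched member with ACAAAG, the letters of a Sox site, which 16.5% of all stretches held.

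Among the Klf genes that mainly activate transcription, Klf4 (ENSMUSG00000003032, chromosome 4 of GRCm38 from 55527143 to 55532466) restrains the cell cycle and promotes differentiation in the gut. Its FPKM was 8.50 in PID+ cells, with an interval from 1.46 to 15.5, and 22.2 in PID- cells, with an interval from 7.84 to 36.5. The log2 change was -1.29, lower than in all but 3.35% of the genes averaging an FPKM of at least 5. Klf4 had a lower value in PID+ cells under each of 7 other scalings and pseudocounts, from -1.83 with Gapdh set equal to -0.97 with the median of its chromosome subtracted. The latter, by which the 2-fold size is no longer reached, arises because the 560 genes of chromosome 4 averaging an FPKM of at least 5 had a median of -0.31. Most of these settings do not test the direction. A pseudocount cannot reverse it, and equal upper quartiles or centering on expressed genes left the value at -1.29. Equal total FPKM and equal Gapdh only lower the PID+ values.

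Klf5 (ENSMUSG00000005148, chromosome 14 from 99298691 to 99315036), which promotes proliferation in the crypt, had an FPKM of 45.6 in PID+ cells (17.7 to 73.4) and 58.6 in PID- cells (24.2 to 92.9), a log2 change of -0.35. The genes of its chromosome had a median of 0.25, in the opposite direction. Since Klf4 was lower by more than Klf5, the ratio of Klf5 to Klf4 was 5.37 in PID+ cells against 2.64 in PID- cells. Such a ratio within a condition does not depend on the scaling of the libraries. Klf6 (ENSMUSG00000000078, chromosome 13 from 5861482 to 5870394), a growth-restraining factor that many cells induce early after a stimulus, had an FPKM of 102 in PID+ cells (46.6 to 156) and 90.4 in PID- cells (41.5 to 139). Its log2 change of 0.17 became -0.45 with Gapdh set equal, so its direction depends on the scaling. Klf6 exceeded Klf4 12.0-fold in PID+ and 4.08-fold in PID- cells.

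Klf2 (ENSMUSG00000055148, chromosome 8 from 72319033 to 72321656), known from endothelium and resting T cells, was near the bottom of the range. Its FPKM was 0.343 in PID+ cells (0 to 1.01) and 0.913 in PID- cells (0 to 2.70). These values corresponded to 39 reads in PID+ cells, with an exact Poisson 95% interval from 27.7 to 53.3, and 143 reads in PID- cells, from 121 to 168, which cover counting error only. The ratio of FPKM was 0.376, similar to that of Klf4 at 0.383. Its log2 change was -0.51 with the pseudocount of 1 and -1.19 with 0.1, since the pseudocount outweighs levels below 1. All 7 endothelial markers were higher in PID+ cells (5 with equal total FPKM, 4 with Gapdh set equal), against 41% of all genes. The base of that share includes 4232 genes listed at 0 in both conditions. The direction was nominally opposite to that of Klf2, but 6 of the 7 markers were below 1 in both conditions. Kdr, the remaining one, had 3.33 and 1.01 with overlapping intervals. Pecam1, Tek and Esam were nearly level, with FPKM ratios of 1.03, 1.12 and 1.06. Larger ratios were those of Tie1 (0.132 and 0.0489), Emcn (0.109 and 0) and Cdh5 (0.219 and 0.00279). The PID- value of Cdh5 corresponds to 1 read. The part of these markers in the level of Klf2 was not tested.

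Klf3 (ENSMUSG00000029178, chromosome 5 from 64803388 to 64832901) represses transcription through the corepressor CtBP. Its FPKM was 40.7 in PID+ cells (0.223 to 81.1) and 57.6 in PID- cells (0.588 to 115), a log2 change of -0.49. Its interval was the widest relative to the level among the 8 expressed members, and the gene has 9 annotated transcripts and shares exonic bases with Gm20033 on the opposite strand, whose reads cannot be told apart without strand. Klf9 (ENSMUSG00000033863, chromosome 19 from 23141226 to 23168134), a repressor that can recruit Sin3, had 12.8 in PID+ cells (4.08 to 21.6) and 23.2 in PID- cells (8.99 to 37.5), a log2 change of -0.81. Klf10 (ENSMUSG00000037465, chromosome 15 from 38291463 to 38300706), which also recruits Sin3 and is known as a TGF-β inducible early gene, had 16.7 in PID+ cells (5.85 to 27.5) and 30.2 in PID- cells (12.4 to 48.0), a log2 change of -0.82. Both repressors were thus at 0.552 times their PID- level, and the ratio of Klf10 to Klf9 was 1.30 in both conditions. With 1 pooled value per condition and wide intervals, this agreement was not tested. With the chromosome median subtracted, Klf10 came to -1.01, since genes of chromosome 15 had a median of 0.19, and Klf9 stayed at -0.85.

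Sox4 (ENSMUSG00000076431, chromosome 13 from 28948919 to 28953713), a SoxC factor of progenitor cells that acts in TGF-β driven EMT, had an FPKM of 45.2 in PID+ cells (20.3 to 70.1) and 45.5 in PID- cells (20.4 to 70.6). Sox9 (ENSMUSG00000000567, chromosome 11 from 112782224 to 112787760), a SoxE factor and Wnt target of the crypt, had 8.80 in PID+ cells (2.66 to 14.9) and 8.95 in PID- cells (2.73 to 15.2). Their log2 changes were -0.01 and -0.02, close to the median of -0.0012 over the genes averaging an FPKM of at least 5. The ratio of Sox4 to Sox9 was 5.14 in PID+ cells against 5.08 in PID- cells. Sox4 shares exonic bases with the noncoding gene Gm26735 on the opposite strand. With Gapdh set equal, Sox4 came to -0.62 and Sox9 to -0.57, and with the chromosome median subtracted Sox4 came to 0.19, so the near equality holds for the scaling of the authors and not for these alternatives. Setting Gapdh equal shifts every PID+ value by -0.63 on the log2 scale before the pseudocount. The values of Sox4 and Sox9 under it mostly restate that shift and do not test their equality again.

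Sox2 (ENSMUSG00000074637, chromosome 3 from 34650405 to 34652461), a SoxB1 factor of pluripotent cells, foregut and neural progenitors, was listed at 0 in PID+ cells and had an FPKM of 0.00567 in PID- cells. The latter corresponds to 1 read. With 0 reads up to 3 remain possible, so both conditions were at the floor and no fold is given.

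**Figure D2:**
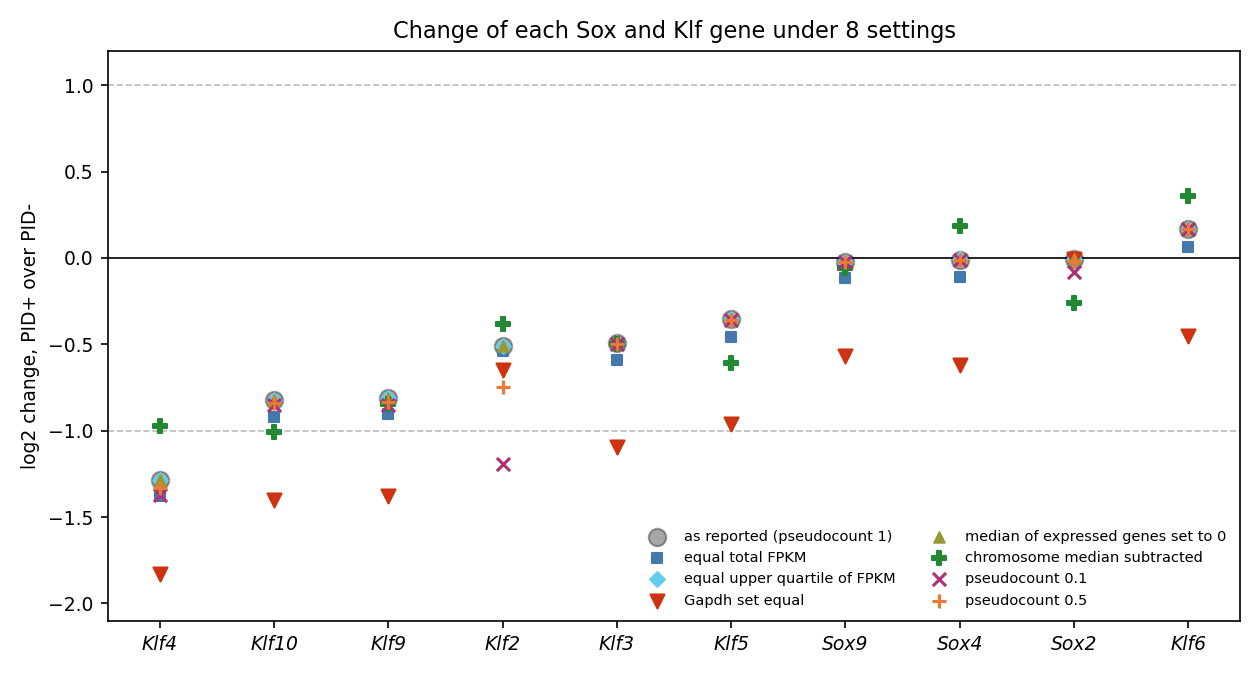
Log2 change in PID+ over PID- cells (vertical axis) of each of the 10 genes (horizontal axis, ordered by the value as reported, large grey circles), with 7 alternative settings as colored symbols; dashed lines mark 2-fold. Setting Gapdh equal (red triangles) puts all 10 genes below 0, and subtracting the chromosome median (green) lifts Klf4 to -0.97.

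In PID- cells the order of levels was Klf6, Klf5, Klf3, Sox4, Klf10, Klf9, Klf4, Sox9, Klf2 and Sox2. In PID+ cells Sox4 stood above Klf3 and Sox9 above Klf4, with the others in the same order. Only the step from the eighth gene to Klf2 separated neighbors whose deposited intervals did not overlap, in both conditions. Against all genes, Klf6 lay at percentile 96.2 of FPKM in PID+ cells against 96.0 in PID- cells. Klf4 went from percentile 79.7 in PID- to 64.5 in PID+ cells, and Klf10 from 84.8 to 75.3. Sox9 stayed near percentile 65, at 64.7 for PID- and 65.1 for PID+ cells.

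The rest of both families was set beside the members. Summed over all 17 Klf genes, FPKM was 261 in PID+ cells against 320 in PID- cells. The members made up most of it, and Klf6 alone provided 39.0% of the sum in PID+ cells against 28.3% in PID- cells. The share of Klf4 was 3.26% in PID+ cells against 6.93% in PID- cells. The 6 Klf genes that can recruit Sin3 summed to 57.0 in PID+ cells against 82.8 in PID- cells, a ratio of 0.689. Klf9, Klf10 and Klf11 were the lower ones among them, while Klf13 and Klf16 were not lower. The 3 that bind CtBP summed to 42.0 and 58.1, a ratio of 0.722. Nearly all of that was Klf3, with 40.7 and 57.6, while Klf8 (0.672 and 0.0653) and Klf12 (0.621 and 0.502) were higher in PID+ cells. The 6 Klf genes that mainly activate summed to 161 and 179, a ratio of 0.903.

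The 10 other Klf genes had a median log2 change of 0.0015. Among them 5 were higher and 4 lower in PID+ cells, against 41% and 39.7% of all genes. None differed by 2-fold, against 3.31% higher and 3.77% lower, and 6 had an FPKM below 1 in both conditions. Klf13 was the most abundant of the 10, with 13.5 in PID+ cells against 13.4 in PID- cells. Klf11, the nearest relative of Klf10 and likewise induced by TGF-β, had 2.51 and 5.98, an FPKM ratio of 0.419. Its log2 change was -0.99, just short of 2-fold, and -1.41 with Gapdh set equal. It was picked out once its level was known, as were Klf16, with 11.6 and 9.91, and Klf8, with 0.672 and 0.0653.

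Among the 17 other Sox genes 6 were higher and 7 lower, against 41% and 39.7% of all genes. Listed at 0 in both conditions were 4, and 12 of the 17, these 4 included, were below 1 in both. Sox17, a SoxF factor of definitive endoderm and endothelium that antagonizes β-catenin, was the most abundant Sox gene in PID+ cells. Its FPKM was 65.6 in PID+ cells (6.48 to 125) and 30.0 in PID- cells (5.19 to 54.8), a log2 change of 1.10, and its intervals overlapped. It shares exonic bases with the noncoding gene Gm37587. Sox17 therefore exceeded Sox4 in PID+ cells, where the ratio of Sox4 to Sox17 was 0.689, and not in PID- cells, where it was 1.52. Sox13, a SoxD factor also picked out by its level, had 20.8 in PID+ cells against 10.2 in PID- cells, and Sox21, a SoxB2 factor named likewise, 14.5 and 10.2. The 20 Sox genes summed to 157 in PID+ cells against 109 in PID- cells, with Sox4 giving 28.7% in PID+ cells against 41.9% in PID- cells, and Sox17 41.7% and 27.6%.

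**Figure D3:**
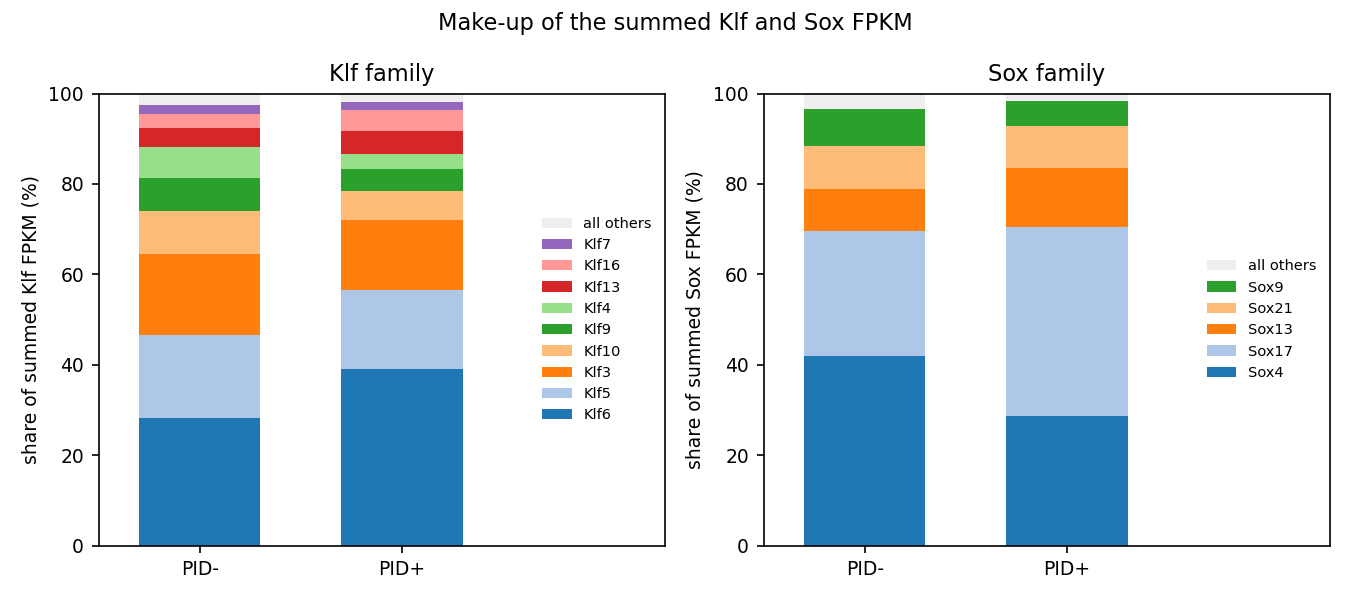
Share of the summed FPKM (vertical axis, percent) of all 17 Klf genes (left) and all 20 Sox genes (right) in PID- and PID+ cells; each color is a gene with at least 2% in either condition. Klf6 widens from 28.3% in PID- to 39.0% in PID+ cells while Klf4 narrows, and Sox17 takes over from Sox4 as the largest Sox share.

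The 9 Sp genes encode zinc finger factors that bind GC boxes as the Klf proteins do. Sp6, which acts in skin and tooth epithelium, was the only one 2-fold apart, with an FPKM of 8.96 in PID+ cells (2.13 to 15.8) and 2.40 in PID- cells (0 to 5.07), a log2 change of 1.55. Sp3, the most abundant, had 31.2 and 33.0, and Sp1 20.5 and 21.6. Over the 36 other Sox, Klf and Sp genes, 13 were higher and 18 lower in PID+ cells, with 5 at 0 in both. At least 2-fold higher were 2 of the 36, and none was lower by that size. Among all genes these shares were 3.31% and 3.77%. With Gapdh set equal 1 of the 36 was higher and 3 were lower, against 1.18% and 11% of all genes. Among the members Klf3, Klf4, Klf9 and Klf10 were then at least 2-fold lower, and Klf4 at least 3-fold, a size that 3.01% of all genes reached. That scaling also shifts the table as a whole, since 46.7% of all genes called at 2-fold were higher in PID+ cells as reported and 9.71% with Gapdh set equal.

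**Figure D4:**
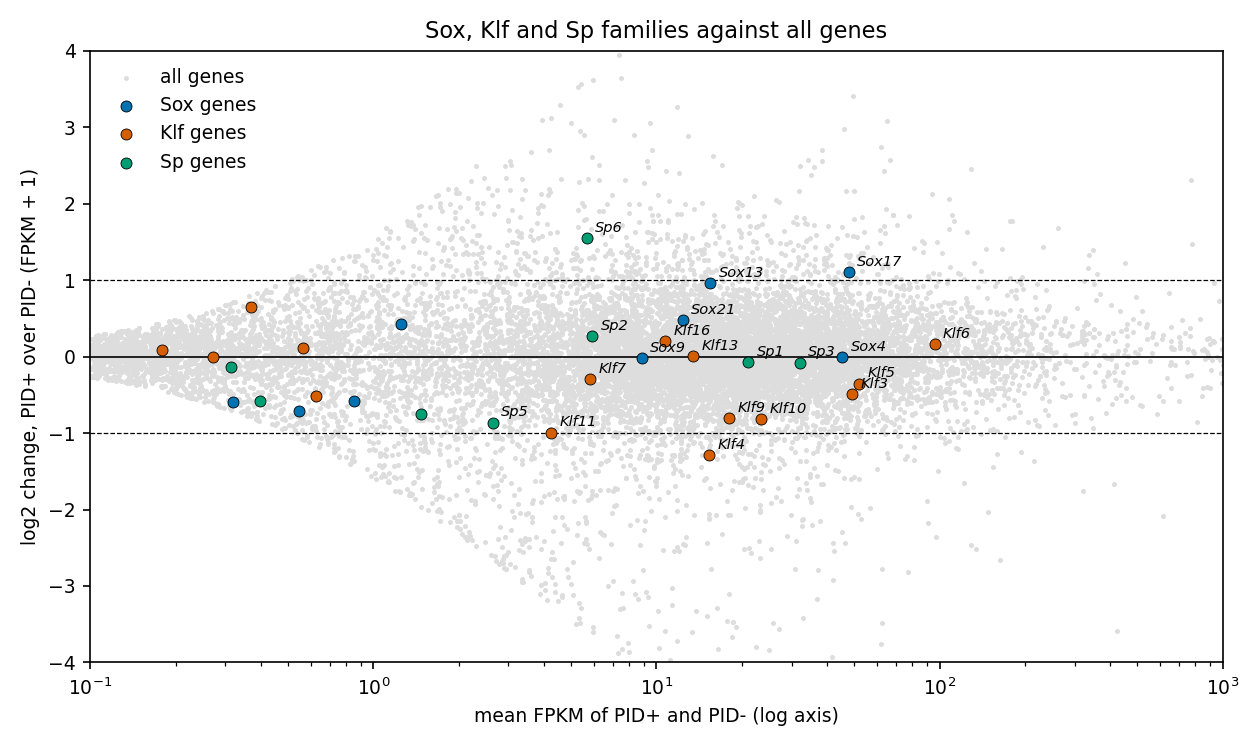
Log2 change in PID+ over PID- cells (vertical axis) against the mean FPKM of both conditions (horizontal log axis) for all genes (grey) and for the Sox (blue), Klf (orange) and Sp (green) genes averaging an FPKM of at least 0.1; names are given from a mean of 2, dashed lines mark 2-fold, and genes outside the axes are not drawn. Klf4 lies below the lower line, Sox17 and Sp6 lie above the upper one, and the other named genes lie between the lines.

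Among 12 proteins that act with Klf or Sox factors, Wwp1, a ubiquitin ligase of Klf5 and Klf2, was the only one 2-fold apart, against 3.77% of all genes lower by that size. Its FPKM was 9.46 in PID+ cells (3.20 to 15.7) and 21.3 in PID- cells (8.80 to 33.8), a log2 change of -1.09. Hdac2 (69.0 in PID+ cells against 78.6 in PID- cells), Sin3b (75.4 and 73.1), Ctbp1 (60.8 and 77.0) and Fbxw7 (7.53 and 8.03), another ubiquitin ligase of Klf5, were within that size.

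Of 24 genes known as targets of a member in some tissue, 18 were higher and 3 lower in PID+ cells, against 41% of all genes higher and 39.7% lower, with 3 listed at 0 in both and a median log2 change of 0.19. With Gapdh set equal 11 were higher and 10 lower. At least 2-fold higher was Thbd, an anticoagulant receptor induced by Klf2, with an FPKM of 4.41 in PID+ cells against 1.41 in PID- cells. At least 2-fold lower was Tubb3, a tubulin gene induced by Sox4, with 0.296 (0 to 18.4) and 2.15 (0 to 65.4). Krt19, the most abundant, had 2469 and 2073. Cdkn1a, a cell cycle inhibitor that Klf4 and Klf6 activate, had 99.2 in PID+ cells against 62.0 in PID- cells, and Ccnb1, a mitotic cyclin that Klf4 represses and Klf5 activates, had 91.2 and 45.2. Alpi, an enterocyte phosphatase, was at 0 in both conditions, and Lyz1, the Paneth cell lysozyme, was at most 0.0135. Cdkn1a, Ccnb1, Alpi and Lyz1 were picked out with their values known.

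Of 14 immediate early genes, a class to which Klf2, Klf4, Klf6 and Klf10 belong in many cells, 4 were at least 2-fold higher and 2 at least 2-fold lower in PID+ cells, against 3.31% and 3.77% of all genes, and the median log2 change was 0.02. Dusp1, a phosphatase of MAP kinases, had an FPKM of 108 in PID+ cells (44.2 to 172) and 19.3 in PID- cells (4.86 to 33.8), a log2 change of 2.42 with intervals apart. Fos (10.4 in PID+ cells against 3.52 in PID- cells), Zfp36 (28.7 and 12.8) and Nr4a1 (13.8 and 5.68) were higher with overlapping intervals. Atf3 (6.94 and 28.5) and Egr1 (7.22 and 21.4) were lower, as Klf4 was. Ier3, the most abundant of the 14, had 180 and 291. The class therefore did not share a direction. With Gapdh set equal, Dusp1 alone was still at least 2-fold higher and 4 of the 14 were at least 2-fold lower, against 11% of all genes.

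Among 6 genes of the glucocorticoid response, to which Klf9 also belongs, 3 were at least 2-fold lower and none higher in PID+ cells, against 3.77% and 3.31% of all genes, and their median log2 change was -0.59. Tsc22d3, an anti-inflammatory leucine zipper factor, had an FPKM of 30.8 in PID+ cells (11.1 to 50.6) and 163 in PID- cells (74.8 to 251), with intervals apart. Zbtb16, a zinc finger repressor, had 0.330 (0 to 1.01) and 5.26 (1.08 to 9.43), with intervals apart. Fkbp5, a chaperone of steroid receptors, had 68.3 and 148. Per1 (14.9 and 15.8) and Sgk1 (52.6 and 47.6), which are also induced by glucocorticoids, were within 2-fold, as was the receptor Nr3c1 (21.6 and 17.3). Tsc22d3, Zbtb16 and Fkbp5 were also the 3 genes at least 2-fold lower with Gapdh set equal, against 11% of all genes. All 6 were then below 0, as were all 10 members and all 12 cofactors, since that scaling lowers every PID+ value.

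Among 11 ligands, receptors, Smads and common targets of TGF-β, 3 were at least 2-fold lower and 1 at least 2-fold higher in PID+ cells, against 3.77% and 3.31% of all genes. In all 5 were higher and 6 lower, with a median log2 change of -0.05. These counts became 3 and 8 with equal total FPKM, and 2 and 9 with Gapdh set equal. Tgfb2 had an FPKM of 0.492 in PID+ cells (0 to 1.18) and 19.9 in PID- cells (5.09 to 34.7), a log2 change of -3.81 with intervals apart. Tgfbi, a target, had 0.282 and 5.57, with overlapping intervals. Tgfb1 had 18.7 and 41.7, and Tgfb3 was higher with 4.75 and 1.74. The receptor Tgfbr2, with 61.1 and 61.0, was level between the conditions, and Smad7, a target that Klf10 represses, had 25.6 and 19.8. Skil, another target, had 33.9 and 20.6, a log2 change of 0.69. With Gapdh set equal 4 of the 11 were at least 2-fold lower and none higher, against 11% and 1.18% of all genes. With the values as reported, lower Klf10 thus stood beside a list of mixed direction. Tgfb2, Tgfb1 and Tgfbi were lower and Tgfb3, Skil and Smad7 higher, and the part of these genes in the level of Klf10 was not tested.

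**Figure D5:**
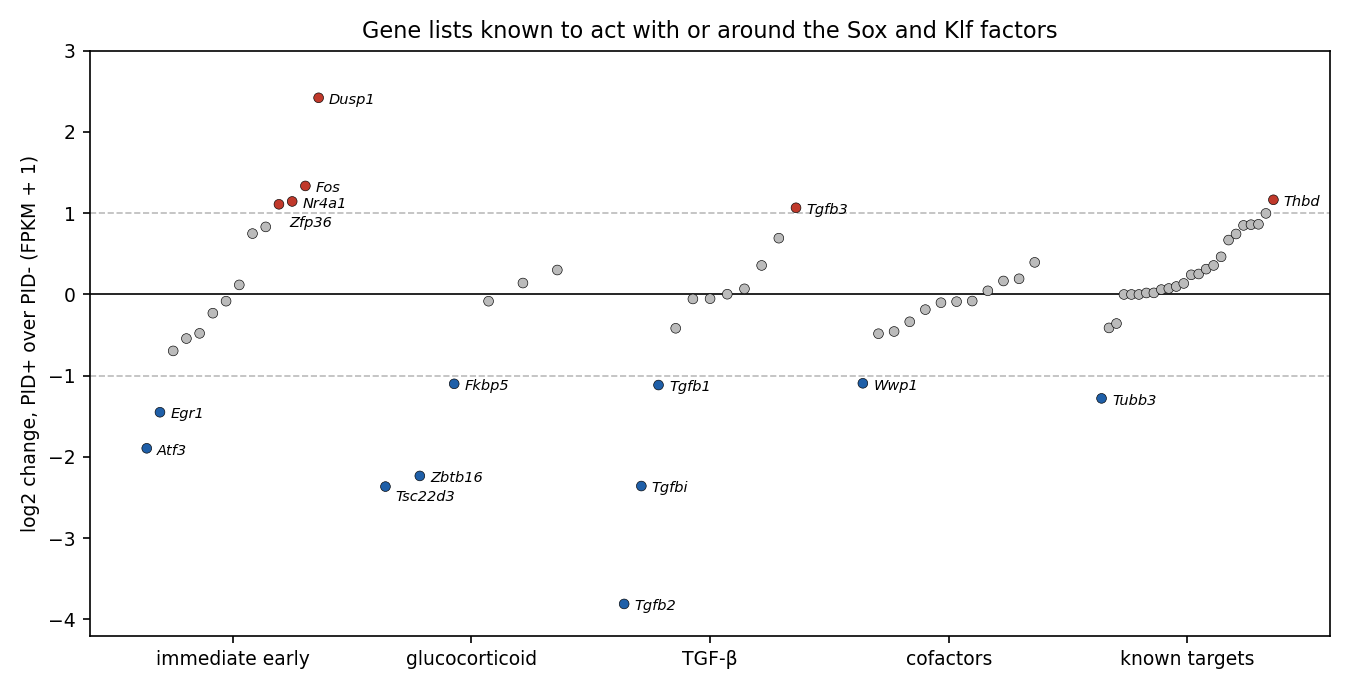
Log2 change in PID+ over PID- cells (vertical axis) of each gene (points, ordered by value within a list) of 5 lists (horizontal axis); red points are at least 2-fold higher, blue points at least 2-fold lower, and dashed lines mark 2-fold. The glucocorticoid list holds 3 blue and no red points, and the immediate early list 4 red and 2 blue ones.

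Markers of cell types differed between the conditions as well. Epithelial markers were present, with Krt8 at an FPKM of 2745 in PID+ cells against 1319 in PID- cells and Epcam at 401 and 124. Krt18 (2843 and 1199), Cdh1 (192 and 88.0) and Krt20 (158 and 73.5) were present too. These 5 of 10 were 2-fold or more higher in PID+ cells, against 3.31% of all genes. With equal total FPKM 3 were, and with Gapdh set equal Epcam alone, against 1.18% of all genes in the latter setting. The intestinal gene Cdx1 was at 0 in both conditions and Vil1 at most at 0.175. The 2 epithelial markers lower in PID+ cells were Cdx2, with 0.542 in PID+ cells against 8.04 in PID- cells, and Lgals4, with 1.86 and 3.43. Of 9 fibroblast markers, 8 were lower in PID+ cells, against 39.7% of all genes, and Lum was at 0 in both. With Lum included, 4 of the 9 were below 1 in both conditions. The summed FPKM of the 9 was 7.39 in PID+ cells against 43.9 in PID- cells. Highest in PID- cells were Col1a2 (0.0654 in PID+ cells against 11.9 in PID- cells) and Col1a1 (2.32 and 11.9). They were followed by Acta2 (4.39 and 9.76) and Col3a1 (0.339 and 6.35). Dcn was at 0 in PID+ cells and at 2.39 in PID- cells. The summed FPKM of 7 endothelial markers was 4.11 and 1.37, most of it from Kdr (3.33 and 1.01). The 7 leukocyte markers summed to 22.1 and 17.1, nearly all from Cd68 (21.8 and 16.8), with Cd3e at 0 and Ptprc at 0.0264 and 0.00811. Fibroblast markers were thus lower in PID+ cells together with Klf4, Klf9 and Klf10, and their part in that was not tested.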

How the data were processed

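RNA was poly(A) selected and made into libraries with a TruSeq kit that does not mark strand. According to the methods, the authors trimmed reads with CutAdapt and aligned them to GRCm38.p3 with TopHat, guided by the protein coding genes. They merged the 3 sets of reads of a condition, which the methods call sequencing runs and the labels mice, and deposited the FPKM of CuffDiff with the bounds of its intervals. PID+ values are those the table calls treated, PID- values those called untreated. The deposited standard deviation column equals the upper distance divided by 2 and was not used.

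Of 21966 genes, 7 without the status OK were left out. Symbols matched 21727 of the others, and Gencode M21 (GRCm38) gave the positions. What 1 read is worth was taken from single-transcript genes, with 180 bases subtracted from their length, the best of 31 corrections tried. Fold changes used a pseudocount of 1, and 3-fold is the study's own threshold. No test was possible with 1 value per condition.

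The members and gene lists (families, cofactors, targets, immediate early, glucocorticoid and TGF-β genes, markers of epithelium, fibroblasts, endothelium, leukocytes, squamous and gastric epithelium, neurons and glia) were chosen with earlier results of these data known. Of these lists, 1 TGF-β gene and 1 neural and glial gene were left out of all counts and are not reported here. Named were all members, the most abundant gene of a list and genes at least 2-fold apart with an FPKM of at least 2. All other genes named, such as Hdac2, Ctbp1, Fbxw7, Per1, Sgk1, Nr3c1, Smad7, Skil, Sp1, Cdh5 and the markers at 0, were picked with their values known. The fold calculation was tested on simulated data. Python 3.11.15, numpy 2.4.6, pandas 2.3.3 and matplotlib 3.10.9 were used.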

Additional observations from a re-analysis of the deposited data

How the results depend on the processing

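Alternatives were 3 other scalings, centering on expressed genes or on each chromosome, pseudocounts of 0.1 and 0.5, a filter at a mean FPKM of 5, and intervals apart in place of a fold. With Gapdh set equal the log2 changes were -0.62 for Sox4, -1.10 for Klf3, -0.96 for Klf5, -0.45 for Klf6, -1.38 for Klf9 and -1.40 for Klf10. The number of members at least 2-fold lower was then 4 instead of 1, and at least 3-fold lower 1 instead of none. This follows from dividing all PID+ values by the Gapdh ratio. With the chromosome median subtracted, Klf4 was at -0.97 and Klf10 at -1.01. With a pseudocount of 0.1, Klf2 was at -1.19 and 2 members were at least 2-fold lower. Of the 36 other family genes, 1 was at least 2-fold higher and 3 lower with Gapdh set equal, 4 and 7 with a pseudocount of 0.1, 3 lower with a pseudocount of 0.5 and 1 lower with equal total FPKM. By intervals apart, 0 were higher. The counts for the companion and marker lists with Gapdh set equal or with equal total FPKM were added after the data were seen. The other 111 values changed by less than the limit set for them, although Sox4 turned to 0.19 with the chromosome median subtracted, and the other family genes at least 2-fold higher numbered 3 there and with a pseudocount of 0.5. The spread between the lines is not known from 1 pooled value per condition, and no replicate was left out for that reason. No paired analysis was possible because the table holds no value per sample.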

Other observations

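Markers of tissues in which Sox2 is active were looked up beside its near absence. Of 7 squamous and gastric markers, 5 had an FPKM below 1 in both conditions. Krt13, a keratin of stratified epithelium, had 5.53 in PID+ cells against 37.6 in PID- cells (log2 change -2.56). Krt14, a basal keratin, had 2.18 against 0.0912 (log2 change 1.54). The basal factor Trp63 had 0.0227 and 0.175, and the gastric genes Gkn1 and Muc5ac at most 0.141. Of 5 neural and glial markers, 4 were below 1 in both conditions. Tubb3 had 0.296 in PID+ cells against 2.15 in PID- cells, and Sox10 was at 0 in both.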
